A study of Mus musculus with 10 samples.

Results

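The T-tubule and dyad genes described here are 10 symbols chosen by function, with earlier results of these data known. They include the junctophilins Jph1 and Jph2 and the membrane-shaping or membrane-bound proteins Bin1, Cav3, Tcap and Dysf. The others are the L-type calcium channel subunits Cacna1c, Cacnb2 and Cacna2d1, and the ryanodine receptor Ryr2. All 10 were found by symbol among the 23337 genes of the authors' deposited table, and all 10 had a fold change and an adjusted p-value. The samples were cardiomyocytes, the heart's contracting cells. They came from wild-type mice given an adeno-associated virus of serotype AAV9 on postnatal day 1 at 5e+08 viral genomes per gram. The virus carried GFP alone in the GFP group (5 libraries) or dnMKL1 with GFP in the dnMKL1 group (5 libraries), in both cases behind cTNT, the promoter of cardiac troponin T, so the transgene is meant for cardiomyocytes. Cells were collected on postnatal day 14 by collagenase perfusion and fluorescence-activated sorting. Mouse strain and sex, and whether a library pooled animals, are not stated in the labels, which call the 5 libraries of a group biological replicates. dnMKL1 is a dominant-negative form of MKL1 (also named MRTF-A), a coactivator of serum response factor (SRF), and the comparison asks which transcripts of maturing cardiomyocytes differ when it is present.

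T-tubules are inward folds of the cardiomyocyte surface membrane that carry the action potential into the cell, and in mice they form in the weeks after birth. At a dyad, a T-tubule faces a cistern of the sarcoplasmic reticulum, the calcium store. L-type channels in the T-tubule admit a little calcium, which opens ryanodine receptors in the facing store and releases the calcium that starts contraction. Junctophilins span the gap and hold the membranes at a fixed distance, and Bin1, Cav3, Dysf and Tcap are known for shaping, repairing or anchoring the T-tubule.

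Of the 10 genes, 5 were lower in dnMKL1 libraries and 0 were higher in the authors' deposited table, at an adjusted p-value under 0.05 (DESeq2's Wald test with Benjamini-Hochberg adjustment). Both junctophilins, Ryr2, Dysf and Cav3 fell, to between 54.4% and 74.9% of their level in the GFP group. The 3 L-type channel subunits, Tcap and Bin1 were not called in either direction. Over all 14056 genes with an adjusted p-value, 17.4% were called lower and 16.6% higher. Among the 1986 genes with base means from 1000 to 10000, where 6 of the 10 genes lie and 3 of them fell, 40.1% were called lower and 14.4% higher. The members' share is thus near that of genes of like abundance. The base mean is the authors' average of size-factor-normalized counts over all libraries. Over the 10 genes the median log2 fold change was -0.28, and over all genes tested it was 0.021.

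**Figure D1:**
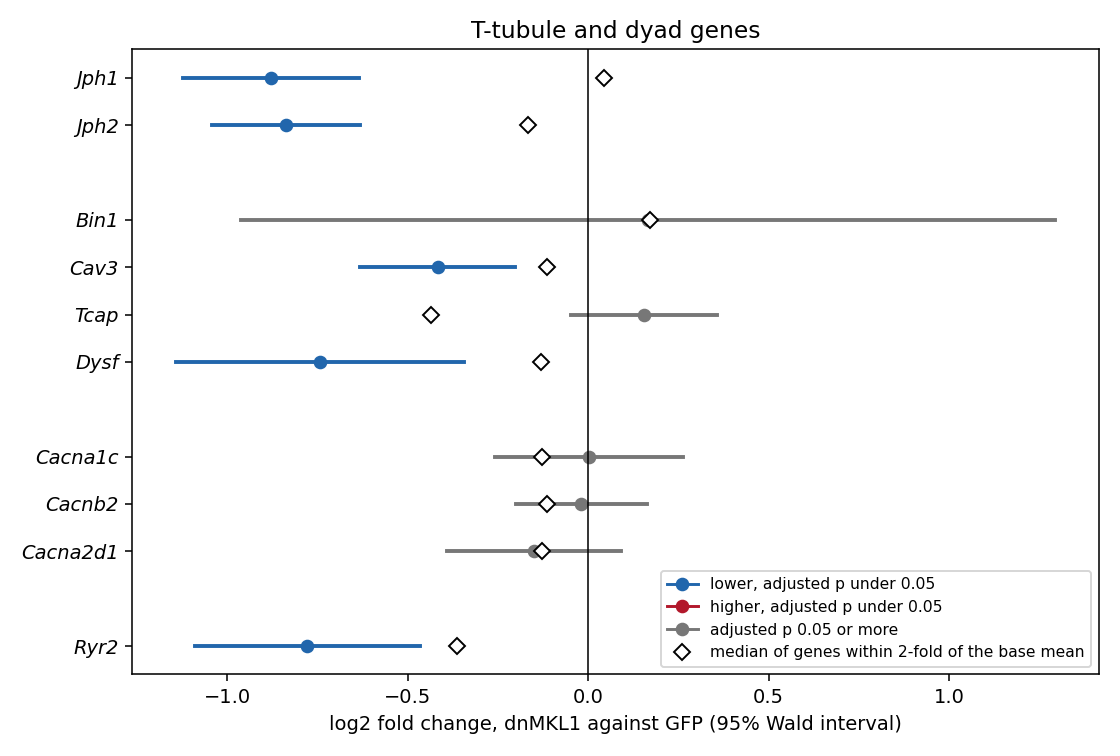
Log2 fold change (x axis, dnMKL1 against GFP) of the 10 genes with 95% Wald intervals, in the order junctophilins, membrane proteins, L-type channel subunits and ryanodine receptor. Blue marks an adjusted p under 0.05 with lower expression in dnMKL1 libraries, grey marks genes not called, and open diamonds give the median log2 fold change of genes within 2-fold of the gene's base mean; the intervals of Jph1, Jph2, Cav3, Dysf and Ryr2 lie below 0 and those of the channel subunits span it.

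No value per library is in the deposited table, so each gene is given as an implied mean for either group, which its fold change and base mean together fix. The spread between libraries enters through the standard error (SE), from which an implied coefficient of variation (CV) between libraries of a group was derived. That CV is the value implied by the authors' fitted model and not a spread observed between libraries. Which group a positive fold change favours is not named in the file headers and was read from Mkl1, the parent gene of the vector's insert. The authors' deposited table lists it at 9.80 (SE 0.15) on the log2 scale, so positive values are taken as higher in dnMKL1 libraries, and reads of the vector and of the endogenous gene are not separated in it. Srf itself had -0.80 (SE 0.10, adjusted p = 2.6e-13) in the authors' deposited table (DESeq2). Estimated library totals ran from 8803005 to 17228537 counts over the 10 libraries. All 11 cardiomyocyte structural markers were expressed, led by Myh6 with a base mean of 594986 in the authors' deposited table, and 8 of them were lower, with a median log2 fold change of -0.58. In bulk samples, fewer cells of a type and less RNA per cell cannot be told apart. Summed implied means of markers of other cell types went from 2749 to 2837 normalized counts for 8 endothelial genes (0 called), from 3539 to 4913 for 8 fibroblast genes (3 higher), from 922 to 1080 for 5 mural genes (1 higher) and from 147 to 131 for 8 macrophage genes (1 higher). A sixth mural marker, Cspg4, alone went from 501 to 2019. Their part in the results for the 10 genes was not tested.

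The promoters of these genes were examined for letters that could be shared by those that fell. Promoter sequences from RefSeq (GRCm38.p6, 250 bases before to 50 after a start site) matched 7 of the 10 genes with 12 promoters in all. Jph1 and Tcap had no match among the promoters searched. Bin1 could not be matched, because its chromosome was left out of the search. Values given below for all promoters likewise cover only the set searched. The 250 bases before the start are shown for the main junctophilin, the ryanodine receptor and the muscle caveolin, which fell, and for the channel subunit Cacna2d1, which was not called. Capitals mark the E-box, CANNTG, the site of basic helix-loop-helix factors.
Jph2: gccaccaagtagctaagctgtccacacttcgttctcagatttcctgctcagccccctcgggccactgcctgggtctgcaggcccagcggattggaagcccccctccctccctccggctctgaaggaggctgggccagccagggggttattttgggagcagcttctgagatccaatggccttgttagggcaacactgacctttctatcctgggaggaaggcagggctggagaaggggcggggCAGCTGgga
Ryr2: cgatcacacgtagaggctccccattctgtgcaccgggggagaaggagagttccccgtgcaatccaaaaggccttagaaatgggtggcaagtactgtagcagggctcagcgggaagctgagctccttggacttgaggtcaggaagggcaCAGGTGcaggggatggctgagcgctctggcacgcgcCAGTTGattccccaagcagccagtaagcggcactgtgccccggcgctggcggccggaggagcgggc
Cav3: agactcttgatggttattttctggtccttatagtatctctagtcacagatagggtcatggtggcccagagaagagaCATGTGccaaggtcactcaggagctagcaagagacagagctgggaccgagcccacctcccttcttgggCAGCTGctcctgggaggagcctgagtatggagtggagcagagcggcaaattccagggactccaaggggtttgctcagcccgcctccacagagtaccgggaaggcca
Cacna2d1: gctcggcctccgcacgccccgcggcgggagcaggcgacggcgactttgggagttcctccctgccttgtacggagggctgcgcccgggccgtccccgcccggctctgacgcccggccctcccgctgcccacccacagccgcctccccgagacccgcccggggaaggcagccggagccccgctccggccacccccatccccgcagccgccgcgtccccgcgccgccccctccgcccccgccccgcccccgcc
The windows are, in that order, chr2:163397994-163398243 (minus strand), chr13:12106946-12107195 (minus strand), chr6:112459255-112459504 (plus strand) and chr5:15934441-15934690 (plus strand). Jph2 has 1 E-box, Ryr2 and Cav3 have 2 each, and Cacna2d1 has 0. Among windows not shown, another of Jph2 also has 1, and the rest go the other way. Those of Dysf, which fell, have 0. Those of Cacnb2 have 1 and 4 and those of Cacna1c have 1 each, and neither gene was called. Over whole promoters of 300 bases, 10 of the 12 promoters of these genes held CANNTG on either strand. Among all 32851 promoters searched the share was 72.3%, so its presence does not mark the genes that fell. The CArG box, the site SRF binds, was in 0 of the 12 and in 1.63% of all promoters. It was counted only as an exact match to CCWWWWWWGG, with W for A or T. Near matches, here and for the other motifs, were not searched for. The MEF2 box, the site of another muscle factor family, was in 0 of the 12 and in 3.19% of all. TATAAA was in 0 of the 12 (13.6% of all), and the TEAD core CATTCC was in 1 promoter, that of Cav3 (14.7% of all). Among the 12693 promoters of genes with an adjusted p-value, all 5 shares were lower. They were 64.6% for CANNTG, 1.39% for the CArG box, 1.88% for the MEF2 box, 7.41% for TATAAA and 12.7% for CATTCC. These counts describe letters in a short window and no more. The 250 bases of Cacna2d1 are 82.4% G or C, above those of Jph2 (62.0%), Ryr2 (63.2%) and Cav3 (56.0%), and the median over all promoters was 52.4%. The other subunits, also not called, lay on both sides: 50.4%, 51.6% and 82.8% for Cacna1c, and 46% and 73.2% for Cacnb2.

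Both junctophilins fell, by like amounts. Jph2 (chr2:163336242-163397993, minus strand), the main junctophilin of the heart, stood at 5869 normalized counts with GFP and at 3286 with dnMKL1 (implied means), with an implied CV of 11.4% between libraries. The authors' deposited table gave a log2 fold change of -0.84 (SE 0.11, adjusted p = 9.1e-14, DESeq2), which is 56.0% of the GFP level with a 95% interval from 48.6% to 64.6%. Jph1 (chr1:16964560-17097889, minus strand), better known from skeletal muscle, went from 246 to 134 normalized counts, with -0.88 (SE 0.12, adjusted p = 5.1e-11, DESeq2) in the authors' deposited table. For each gene the groups differed by more than the implied spread between libraries, and the proportion between the 2 genes hardly moved: per kilobase of exon, Jph1 was 3.45% of the junctophilin total with GFP and 3.35% with dnMKL1. Among genes with a base mean within 2-fold of their own, 1.87% had a log2 fold change below that of Jph1 and 6.64% below that of Jph2. The other junctophilins, known from brain, were near absent, with base means of 3.08 for Jph3 and 0.951 for Jph4 in the authors' deposited table, and neither was called. An antisense gene, Gm28376, overlaps exons of Jph1 in GENCODE and is not in the deposited table. Since the use of strand in counting is not stated, its reads cannot be told apart from those of Jph1.

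Among the membrane proteins, Dysf and Cav3 fell while Tcap and Bin1 were not called. Dysf (chr6:84008590-84211060, plus strand) encodes dysferlin, a membrane repair protein of the T-tubule system. Implied means were 2936 normalized counts with GFP and 1755 with dnMKL1, and the authors' deposited table gave -0.74 (SE 0.20, adjusted p = 0.00141, DESeq2). Dysf was the most variable of the well-expressed members: its implied CV was 22.2%, and 95.8% of genes with base means from 1000 to 10000 had a smaller SE. The interval for its dnMKL1 level, 45.3% to 78.8% of GFP, is accordingly wide. The call was lost with equal totals (-0.45) and with the structural markers as reference (-0.16). The antisense genes Gm33024 and Gm15475 overlap exons of Dysf in GENCODE and are not in the deposited table.

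Cav3 (chr6:112459505-112472872, plus strand) encodes the muscle caveolin, a scaffold of membrane pits found in developing T-tubules. It went from 2044 to 1531 normalized counts with an implied CV of 11.8%, and the authors' deposited table gave -0.42 (SE 0.11, adjusted p = 0.000848, DESeq2). The fall to 74.9% of GFP was the smallest of the 5, with a 95% interval from 64.5% to 86.9%. That interval lies above the junctophilin estimates. It meets the interval of Jph2, which reaches up to 64.6%, and lies just above that of Jph1, which reaches up to 64.4%. Of genes with a base mean within 2-fold, 19.7% had a lower log2 fold change. The call of Cav3 was lost when both groups were scaled to the same total (-0.13) and its value turned to 0.17, not called, when centred on the cardiomyocyte structural markers.

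Tcap (chr11:98383811-98384953, plus strand) encodes telethonin, the cap of titin at the Z-disc, which also ties the T-tubule to the sarcomere. It was the most abundant of the 10 genes, with implied means of 13022 and 14494 normalized counts in GFP and dnMKL1 libraries and an implied CV of 11.3%. In the authors' deposited table its log2 fold change was 0.15 (SE 0.10, adjusted p = 0.263, DESeq2), with an interval from 96.7% to 128% of GFP, so that a fall of the size seen for Jph2 lies outside it. Genes of like abundance were mostly lower: the median log2 fold change of the 191 genes within 2-fold of its base mean was -0.43, and 88.0% of them lay below Tcap. Among the 140 genes with base means from 10000 up, 3.57% were called higher. Set against its 191 neighbours Tcap was called higher (0.59), as it was with equal totals, with the structural markers as reference and against its abundance class (0.44 to 0.75). Centring on the median gene left it uncalled.

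Bin1 (chr18:32377230-32435737, plus strand) encodes amphiphysin 2, which bends membrane into tubules and gathers L-type channels there. Its reads were few, with implied means of 14.1 normalized counts (GFP) and 15.9 (dnMKL1). The authors' deposited table gave 0.17 (SE 0.58, adjusted p = 0.874, DESeq2), and the interval from 51.3% to 245% of GFP covers changes as large as those of any other member. With an implied CV of 57.4% it was the least even of the 10 between libraries, and 96.7% of genes with base means from 10 to 100 had a smaller SE. A change of that size would therefore not stand out from the implied spread of Bin1 between libraries.

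The L-type calcium channel subunits gave estimates close to 0 with narrow intervals. Cacna1c (chr6:118587240-119196418, minus strand), the pore-forming subunit of the cardiac channel, had implied means of 2177 and 2180 normalized counts, and the authors' deposited table gave 0.0021 (SE 0.13, adjusted p = 0.993, DESeq2). Its 95% interval ran from 83.6% to 120% of GFP. Dcp1b lies on the opposite strand across Cacna1c exons, with a base mean of 24.8 in the authors' deposited table beside 2179 for Cacna1c. Cacnb2 (chr2:14603088-14987908, plus strand), the intracellular beta subunit that brings the pore to the membrane, went from 1802 to 1779 normalized counts with -0.019 (SE 0.092, adjusted p = 0.912, DESeq2) in the authors' deposited table, an interval from 87.1% to 112% of GFP and the smallest implied CV of the 10, 9.80%. Exons of Cacnb2 overlap Gm10848, Gm10849 and Gm13269 on the other strand, none of which is in the deposited table. Cacna2d1 (chr5:15934691-16374511, plus strand), the extracellular alpha2delta subunit that aids trafficking, went from 2395 to 2158 with -0.15 (SE 0.12, adjusted p = 0.383, DESeq2) in the authors' deposited table, an interval from 76.2% to 106%. A fall to the level of Jph2 (56.0%) is outside the interval of each of the 3 subunits, while a modest change is not.

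Ryr2 (chr13:11553102-12106945, minus strand) encodes the calcium release channel of the cardiac store. It went from 13188 to 7689 normalized counts, with an implied CV of 17.4%. The authors' deposited table gave -0.78 (SE 0.16, adjusted p = 9.6e-06, DESeq2), or 58.3% of GFP with an interval from 47.0% to 72.3%. Genes this abundant were lower as a rule: among the same 140 genes, 70.7% were called lower and the median log2 fold change was -0.60. Centred on that class Ryr2 was no longer called (-0.18), as with the cardiomyocyte structural markers as reference (-0.19). Its base mean, 10438, is just over the edge of that class, and against the 245 genes within 2-fold of its base mean it was called lower (-0.42), with 22.0% of them below it.

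The gaps between genes do not depend on any scaling common to the table, but centring by abundance shifts genes unequally and does move them. Ryr2 and Cacna1c stood at -0.78 and 0.0021 as deposited. They stood at -0.42 and 0.13 against genes within 2-fold of the base mean, and at -0.18 and 0.13 against the abundance class. The ratios below are those of the deposited scale. Per kilobase of exon, Ryr2 was 4.46 times Cacna1c with GFP and 2.60 times with dnMKL1, so the ratio of release channel to L-type pore transcripts stood at 58.2% of its GFP value. Jph2 relative to Cacna1c stood at 55.9%, and the 95% intervals of the fold changes of Jph1, Jph2, Ryr2 and Dysf each lay apart from that of Cacna1c. Cav3 relative to Cacna1c stood at 74.8%, with overlapping intervals. Jph2 relative to Ryr2 stayed at 96.0% and Cacnb2 relative to Cacna1c at 98.6%. These ratios are descriptions, since the covariance of 2 genes across the libraries is needed for their error and cannot be had from the table.

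**Figure D2:**
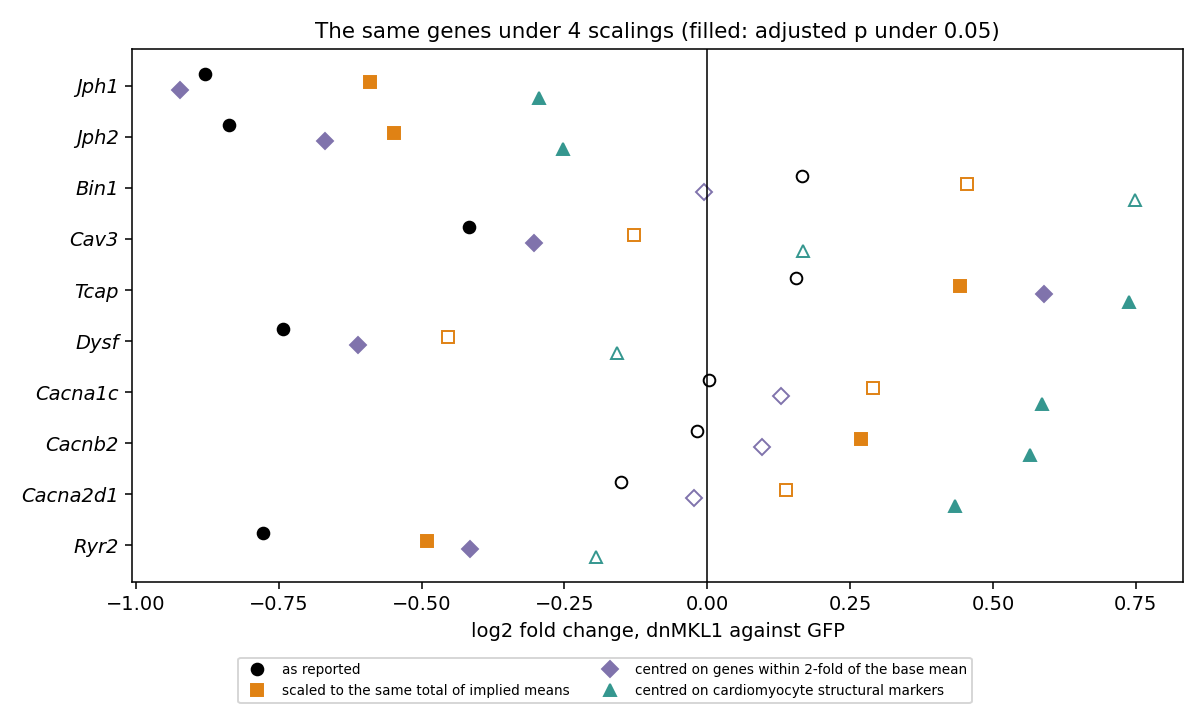
Log2 fold change (x axis, dnMKL1 against GFP) of the 10 genes as deposited and after 3 other scalings, each of which moves genes by a shift; filled symbols have an adjusted p under 0.05. Jph1 and Jph2 lie below 0 and filled under all 4, while the channel subunits move from near 0 to as far as 0.59 when the cardiomyocyte structural markers are the reference.

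Under the 4 scalings plotted, Jph1 ran from -0.92 to -0.30 and Jph2 from -0.84 to -0.25, called lower in each. The reference matters because abundant transcripts were lower in general. Implied means summed to a log2 ratio of -0.29 between the groups, and the structural markers had a median of -0.58. With the totals set equal, 3 of the 10 genes were lower and 2 higher (Tcap and Cacnb2). With the structural markers as reference, 2 were lower and 4 higher: Jph1 and Jph2 were still lower, Ryr2, Dysf and Cav3 were not called, and Tcap and the 3 channel subunits were higher.

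The order of the members' levels per kilobase of exon in the GFP group was Tcap (13737 normalized counts per kilobase), Cav3 (1767), Jph2 (1379), Ryr2 (458), Dysf (353), Cacna2d1 (193), Cacnb2 (136), Cacna1c (103), Jph1 (49.2) and Bin1 (3.44). Tcap, Cav3 and Jph2 thus headed the list, the channel subunits sat in its lower part, and the structural members Jph1 and Bin1 came last. Ryr2 and Dysf were 1.30-fold apart. Their implied CVs give a fold of 1.33 as 1 SD of the ratio in a single library, if the 2 genes vary independently. Every other pair of neighbours was further apart than that measure for the pair. The covariance of the genes is not known, so the order of close pairs is a description only. With the length of the longest transcript in place of all exons joined, Cacna2d1 and Cacnb2 changed places. In the dnMKL1 group the order was the same.

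**Figure D3:**
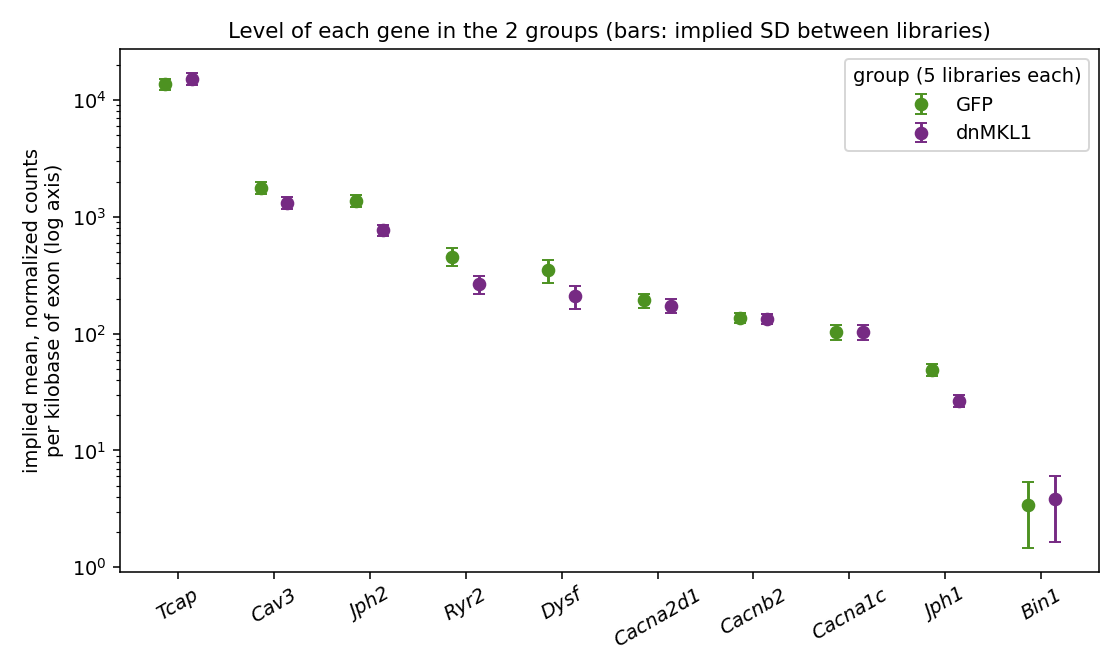
Implied mean per kilobase of exon (y axis, normalized counts, log scale) of each gene in the GFP group (green) and the dnMKL1 group (purple), with bars for the implied SD between libraries. The bars of the groups lie apart for Cav3, Jph2, Ryr2, Dysf and Jph1 and overlap for Tcap, Bin1 and the channel subunits.

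Paralogs of the members, from a list of 22 genes of which 19 are in the deposited table, show whether another family member moved. With an adjusted p-value there were 15, of which 3 were lower, 4 higher and 8 not called, with a median log2 fold change of -0.019. Over all genes 17.4% were lower and 16.6% higher, so these counts are near the background. Most are scarce in cardiomyocytes, with a median base mean of 19.2. Cacna1s, the pore of the skeletal muscle L-type channel, fell: the authors' deposited table gave -1.44 (SE 0.27, adjusted p = 1.1e-06, DESeq2). Per kilobase of exon it went from 8.12% to 3.15% of the summed L-type pores Cacna1c, Cacna1s and Cacna1d. The 6 skeletal muscle markers summed to 51.3 normalized counts with GFP and 57.4 with dnMKL1. Only 3 of them had an adjusted p-value, and 0 of these were called. Most of that was Tnni2, with a base mean of 42.9 in the authors' deposited table beside 41.3 for Cacna1s, while Myod1 had 0.151 and Myf5 was listed at 0. Their part in the fall of Cacna1s was not tested. Ryr3, a minor ryanodine receptor, had -0.97 (SE 0.33, adjusted p = 0.0127, DESeq2) in the authors' deposited table, yet Ryr2 made up 99.5% of ryanodine receptor transcript per kilobase with GFP and 99.6% with dnMKL1. Amph, a relative of Bin1 known from nerve terminals, had -1.11 (SE 0.42, adjusted p = 0.0293, DESeq2) at a base mean of 10.5 in the authors' deposited table. The calls of Ryr3 and Amph were lost at a threshold of 0.01 and with equal totals.

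Of the other beta subunits, Cacnb1 and Cacnb3 rose. The authors' deposited table gave 0.58 (SE 0.16, adjusted p = 0.00191, DESeq2) for Cacnb1, the skeletal muscle beta subunit. Cacnb3, named after its values were seen, had 1.15 (SE 0.37, adjusted p = 0.00785, DESeq2) in the authors' deposited table, and Cacnb4 had 0.10 (SE 0.33) and was not called. Per kilobase, Cacnb2 made up 84.3% of the beta subunit total with GFP and 77.4% with dnMKL1. Bin3, a relative of Bin1, rose by 0.92 (SE 0.14, adjusted p = 4.2e-10, DESeq2) in the authors' deposited table. Myof, a ferlin like Dysf and also named after its values were seen, was just past the threshold with 0.92 (SE 0.39, adjusted p = 0.0495, DESeq2) at a base mean of 13.4 in the authors' deposited table, and Dysf made up 99.6% of ferlin transcript per kilobase with GFP and 99.2% with dnMKL1. Cav1 and Cav2, the caveolins of endothelium and many other cells, were not called, with -0.019 (SE 0.42) and -0.030 (SE 0.51) in the authors' deposited table. The SEs of the endothelial markers ran from 0.25 to 0.49. That of Cav1 lay within this range and that of Cav2 just above it, whereas that of Cav3 was 0.11. The part of endothelial reads in the values of Cav1 and Cav2 was not tested.

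**Figure D4:**
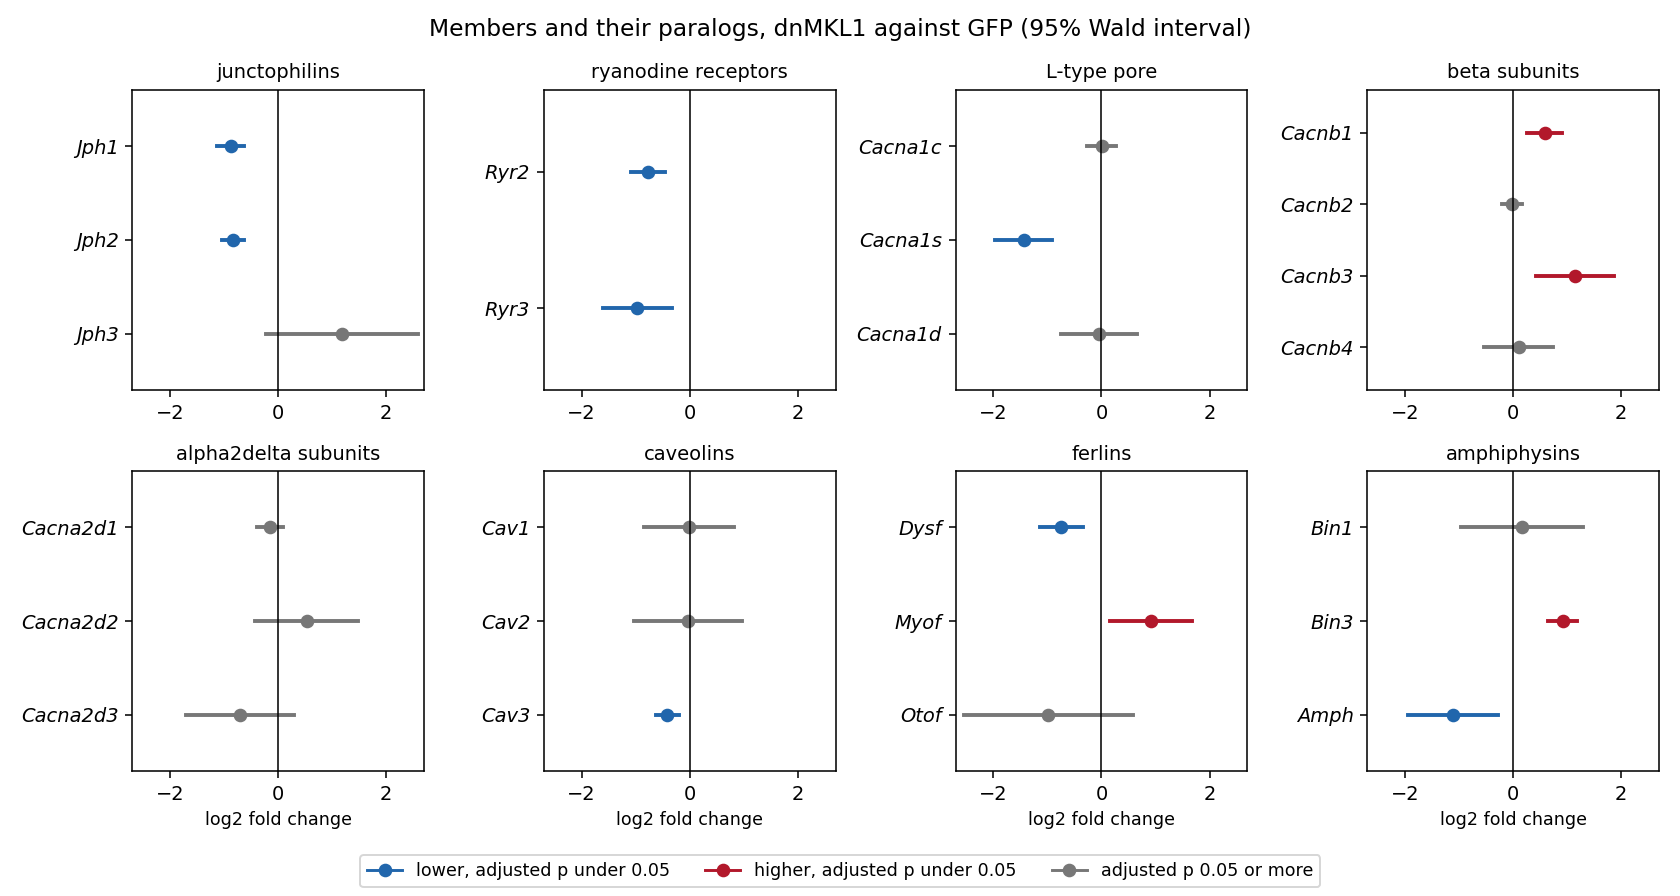
Log2 fold change (x axes, dnMKL1 against GFP) with 95% Wald intervals for the members and their paralogs, 1 panel a family; genes without an adjusted p-value are left out. Blue and red mark lower and higher genes at an adjusted p under 0.05: in the L-type pore family Cacna1s fell while Cacna1c lies at 0, and in the beta subunit family Cacnb1 and Cacnb3 rose while Cacnb2 lies at 0.

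On the store side of the dyad, 16 genes of the junctional sarcoplasmic reticulum gave 9 lower, 0 higher and 7 not called, with a median log2 fold change of -0.29. Called lower were 40.1% of all genes with base means from 1000 to 10000 and 70.7% of those from 10000 up. With equal totals 5 were lower and 3 higher, and with the structural markers as reference 1 was lower and 9 were higher. Atp2a2, the pump that refills the store, had -0.90 (SE 0.10, adjusted p = 1.3e-18, DESeq2) in the authors' deposited table. Casq2, which binds calcium inside the store, had -0.66 (SE 0.10, adjusted p = 3.0e-09, DESeq2), and Camk2d, a kinase that acts on Ryr2, -0.74 (SE 0.10, adjusted p = 4.2e-12, DESeq2) in the authors' deposited table. Phospholamban (Pln), the inhibitor of the pump, had -0.21 (SE 0.11, adjusted p = 0.138, DESeq2) in the authors' deposited table and was not called. Fewer of these genes, 3 in place of 9, were lower when each was set against genes within 2-fold of its base mean, and neither Atp2a2 (-0.095) nor Casq2 (-0.078) was among them.

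Of 18 partners that shape, anchor or share the T-tubule membrane, 8 were lower, 3 higher and 7 not called, with a median of -0.23. That share of lower genes is again near the 40.1% of genes with base means from 1000 to 10000. The balance depended on the reference: 4 were lower and 7 higher with equal totals, 1 and 9 with the structural markers as reference, and 6 and 7 against genes within 2-fold of the base mean. Ehd4, a membrane-remodelling ATPase, had -0.95 (SE 0.10, adjusted p = 2.0e-18, DESeq2) in the authors' deposited table. Nexn, a protein of the Z-disc and the junctional membrane, had -0.70 (SE 0.09, adjusted p = 1.4e-14, DESeq2) in the authors' deposited table. Atp1b1, among the most abundant of the list, had -0.062 (SE 0.055, adjusted p = 0.427, DESeq2) in the authors' deposited table and was not called. The 3 that rose were Ehd3, Ahnak and Rrad. Ehd3, a relative of Ehd4, had 1.21 (SE 0.28, adjusted p = 0.000104, DESeq2) in the authors' deposited table at a base mean of 36.5. Ahnak, a large scaffold that binds the L-type beta subunit, had 0.77 (SE 0.12, adjusted p = 8.9e-10, DESeq2) in the authors' deposited table. Rrad, a small GTPase that restrains the L-type channel, had 0.32 (SE 0.13, adjusted p = 0.0453, DESeq2) in the authors' deposited table, a call lost with adjustment over all deposited p-values.

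**Figure D5:**
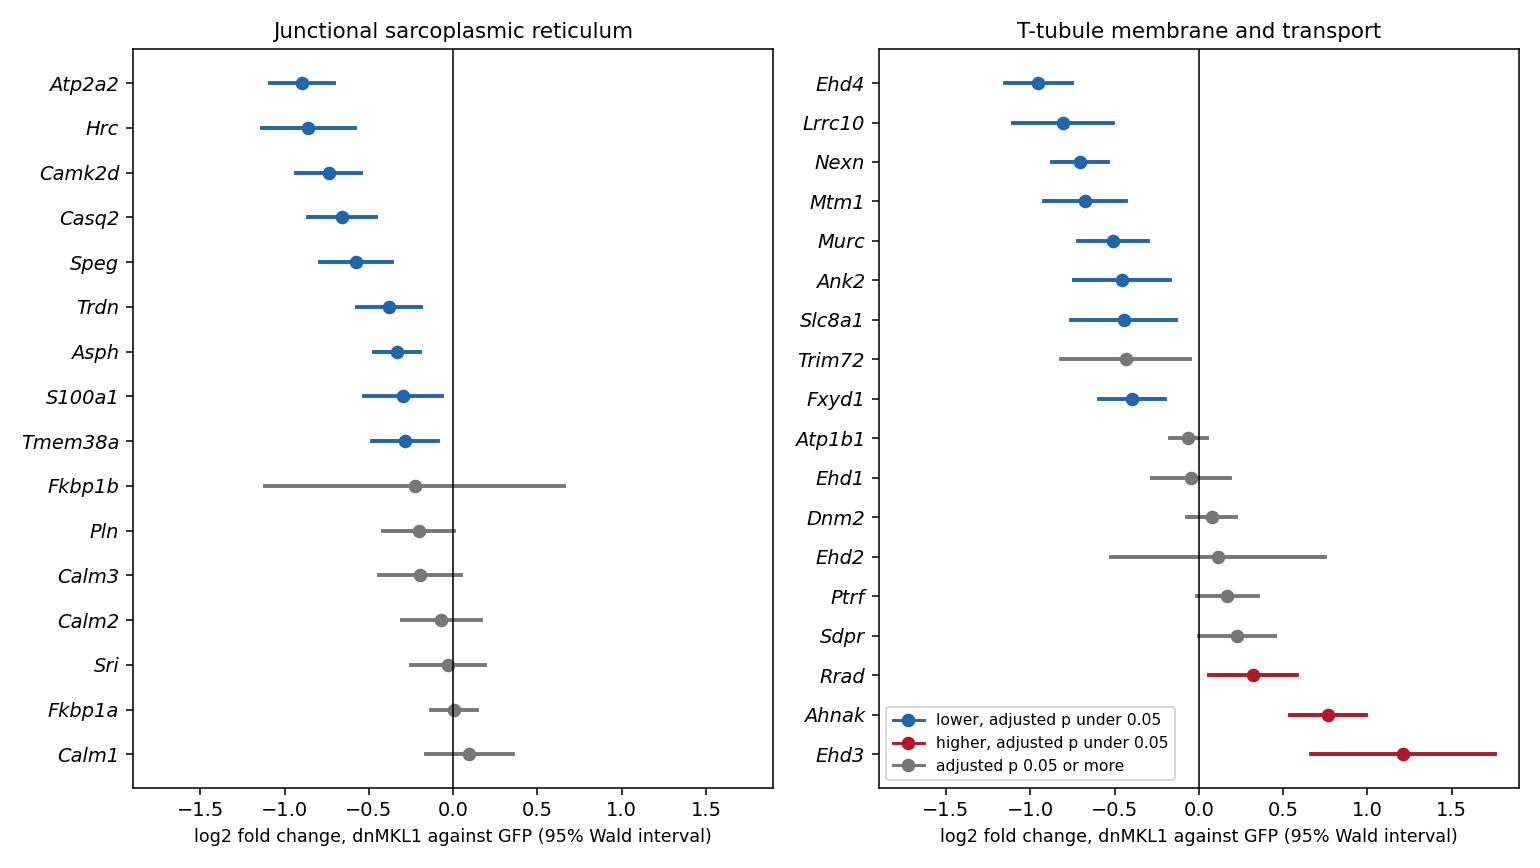
Log2 fold change (x axes, dnMKL1 against GFP) with 95% Wald intervals for 16 junctional sarcoplasmic reticulum genes (left) and 18 T-tubule partners (right), each ordered by its estimate. Blue marks 9 lower genes on the left and 8 on the right, and red the 3 higher genes, Rrad, Ahnak and Ehd3, on the right; Murc, Ptrf and Sdpr are the deposited symbols of Cavin4, Cavin1 and Cavin2.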

How the data were processed

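RNA of sorted mouse cardiomyocytes was sequenced in 5 GFP and 5 dnMKL1 libraries, made with a SMART-Seq kit from 10 ng of total RNA and Nextera XT per the labels' protocols. Reads were aligned with STAR (2.5.3a) and counted with featureCounts (Subread 1.5.2), with mm10 as the build, per the submitters' processing notes. The annotation and use of strand are not given in the sources used here. The only table used is the authors' deposited comparison, whose column names are those DESeq2 writes, per the file headers. Its base mean is a signal in normalized counts, deposited as an average over libraries. Fold change and SE were deposited as log2 values. The authors' Wald statistic, a score, is the ratio of these. The deposited p-values were adjusted by the authors over 14056 genes, and recomputed values differed by at most 1.44e-07.

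Implied group means take the base mean as the average of 2 equal groups. Where a single library holds a gene's single read, the base mean is 1 over 10 times that library's size factor, which gave the factors, and library totals were estimated from them, taking each library to have its group's composition. The implied CV is the square root of the negative binomial dispersion that gives the deposited SE at those size factors. Intervals are 95% Wald intervals and cover the deposited SE only. Lengths and coordinates came from GENCODE M21 (GRCm38, the same assembly as mm10), with all exons of a gene joined; the authors' gene models may differ. Values used Python 3.11.15, numpy 2.4.6, pandas 2.3.3 and scipy 1.17.1. The code for implied means and for calls after a common shift was tested on simulated data. The steps for size factors, implied CVs and promoter motifs were not tested in that way.

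The plan allowed for counts per library, which are not in the table, so the deposited test was used. Members and lists were chosen with earlier results of these data known. A part of the planned partner list is not reported here. Named genes were all members and, of each other list, the 3 with the largest base mean, the 3 with the smallest p-value and those called against the list's majority. No genes alike in pattern were sought, since that needs values per library. Other thresholds, filters, scalings and strands were tried as alternatives.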

Additional observations from a re-analysis of the deposited data

How the results depend on the processing

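The neighbour-based centring (genes within 2-fold of the base mean) and the longest-transcript length were chosen after seeing the data. No paired analysis was possible because the deposited table holds no value per library, and for the same reason no library could be left out and no count model refitted. Whether 1 library decides a value is unknown. All 10 members kept their call at thresholds of 0.01 and 0.1, with adjustment over all deposited p-values, with genes under a base mean of 10 left out and with centring on the median gene. A minimum absolute log2 fold change of 0.5 removed Cav3 (-0.42) and left 5 of the 9 lower store genes and 5 of the 8 lower partners; a threshold of 0.01 left 1 of the 3 lower paralogs. In all genes, the share of higher calls went from 48.8% to 86.0% with equal totals and 96.8% with the structural markers as reference.

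With equal totals, members gave 3 lower and 2 higher, with a median of 0.0047. Cav3 moved to -0.13 and Dysf to -0.45, both no longer called, while Tcap moved to 0.44 and Cacnb2 to 0.27, both called higher. Store genes gave 5 lower and 3 higher (median -0.0042), partners 4 and 7 (0.060) with Atp1b1 at 0.23, and paralogs 1 lower (0.27). With the structural markers as reference, members gave 2 lower and 4 higher (median 0.30). Called higher were Tcap (0.74), Cacna1c (0.59), Cacnb2 (0.56) and Cacna2d1 (0.43). Not called were Cav3 (0.17), Dysf (-0.16) and Ryr2 (-0.19). Store genes gave 1 lower and 9 higher (0.29), with Pln at 0.38; partners gave 1 and 9 (0.36), with Atp1b1 at 0.52; paralogs gave 1 lower (0.56). Centred on the base mean class, members had 1 higher, Tcap at 0.75, and a median of -0.10, with Ryr2 at -0.18 not called. Store genes had 1 higher, Pln at 0.39 (median -0.16), and partners 6 higher (median -0.098). Against genes within 2-fold of the base mean, members had 1 higher, Tcap at 0.59. Store genes had 3 lower and 1 higher, Pln at 0.35 (median -0.090), and partners 7 higher with Atp1b1 at 0.20 (median -0.11). These moves follow from the shifts themselves. On the strand of the gene alone, CATTCC was in 0 member promoters in place of 1.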
